A study of Homo sapiens with 6 samples.

Results

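The ATP-binding cassette (ABC) drug efflux pumps were followed in K562, an established human erythroblastic leukemia line, in cells sensitive to methotrexate (MTX) and in cells selected for resistance to it. The group consisted of 8 genes: ABCB1, ABCG2, ABCC1, ABCC2, ABCC3, ABCC4, ABCC5 and ABCC10. Its members were all probe sets of the array whose platform annotation named one of these genes, which gave 21 probe sets out of 54675. Of them, 20 named 1 member and no other gene, and 1 named ABCB1 together with ABCB4 and is given apart. At the gene level these were 8 of the 19777 genes that a probe set named alone.

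Expression was measured on 6 human whole-genome arrays, 3 of parental K562 cells and 3 of resistant K562 cells. The parental cells were sensitive to MTX and were grown, per the methods of the study, in Ham's F12 medium with fetal bovine serum. The resistant cells were labelled 10e-5 M MTX, had been raised by stepwise selection, and were kept in a medium without glycine, hypoxanthine or thymidine and with dialyzed serum. Resistance and culture medium therefore cannot be told apart, and nothing in the labels says whether the 3 arrays of a group came from separate cultures, so that p-values measure the spread between arrays only. One parental and 1 resistant population were compared, and a bulk sample does not separate a smaller number of expressing cells from less RNA per cell.

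ABC pumps use the energy of ATP to move compounds out of the cell across the plasma membrane. Methotrexate, an antifolate that blocks dihydrofolate reductase, enters cells mainly through the reduced folate carrier and is a known substrate of several ABCC pumps and of ABCG2. Inside the cell it is lengthened by glutamate residues, and the short forms are the ones the pumps export best. ABCB1, by contrast, is known chiefly for the export of hydrophobic drugs, and ABCC2 and ABCC3 are best known from opposite poles of the hepatocyte, where they face bile and blood.

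Signals are given as multiples of the array median, which is the middle value of all probe sets on that array, so that 1 marks the median itself. Differences are resistant minus parental on the log2 scale, from limma over the 26692 probe sets whose mean signal reached 1 array median. A probe set was called when its adjusted p was under 0.05 and its fold was at least 2. Of the member probe sets that named 1 gene, 16 were tested and 4 were too low for the test. The deposited array medians ranged from 10.2 to 14.3. Parental 1 stood apart from its group: its Spearman correlation with the other parental arrays was 0.899 and 0.889, against 0.969 between parental 2 and 3. Among the resistant arrays these correlations ranged from 0.941 to 0.968. Of 15 erythroid identity markers, 9 were on the array, and all 9 were over the median on every array. They summed to between 1725 and 1811 array medians on the parental arrays and to between 1193 and 1448 on the resistant arrays. One of them was called, HBE1, the embryonic epsilon globin, which fell from a mean of 600.5 to 61.6 (difference -3.35, limma adjusted p = 0.00562), while HBZ, the embryonic zeta globin, read 607 and 665. On the group means the fall of HBE1 was larger than that of the sum. Of the 9 markers, 5 had a lower mean in resistant cells, HBE1 among them.

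Of the 16 tested probe sets, 1 was called lower in resistant cells and 0 were called higher. Over all tested probe sets, 1.14% were called lower and 1.20% higher, and with 16 probe sets a single call is the smallest share above 0 that can be seen. The call belonged to ABCC3. At an unadjusted limma p under 0.05, 4 member probe sets were lower and 1 was higher, against 8.98% and 9.71% of all tested probe sets. All 4 that were lower were ABCC3, and the 1 that was higher was ABCC4. The methods' t-test gave 3 lower and 1 higher at an unadjusted p under 0.05, and 0 called after adjustment. Every resistant array lay below every parental array in 5 tested probe sets and above in 1, and the groups overlapped in the other 10. Over all tested probe sets these shares were 12.3% and 14.9%. Of the 5, 4 were of the single gene ABCC3 and passed the level filter only through the parental arrays. The 1 above, of ABCC4, passed it only through the resistant arrays. The counts therefore depend on the filter, and no conclusion is drawn from setting them beside those shares. The median difference of the 16 was -0.10, and it was 0.03 over all tested probe sets.

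**Figure D1:**
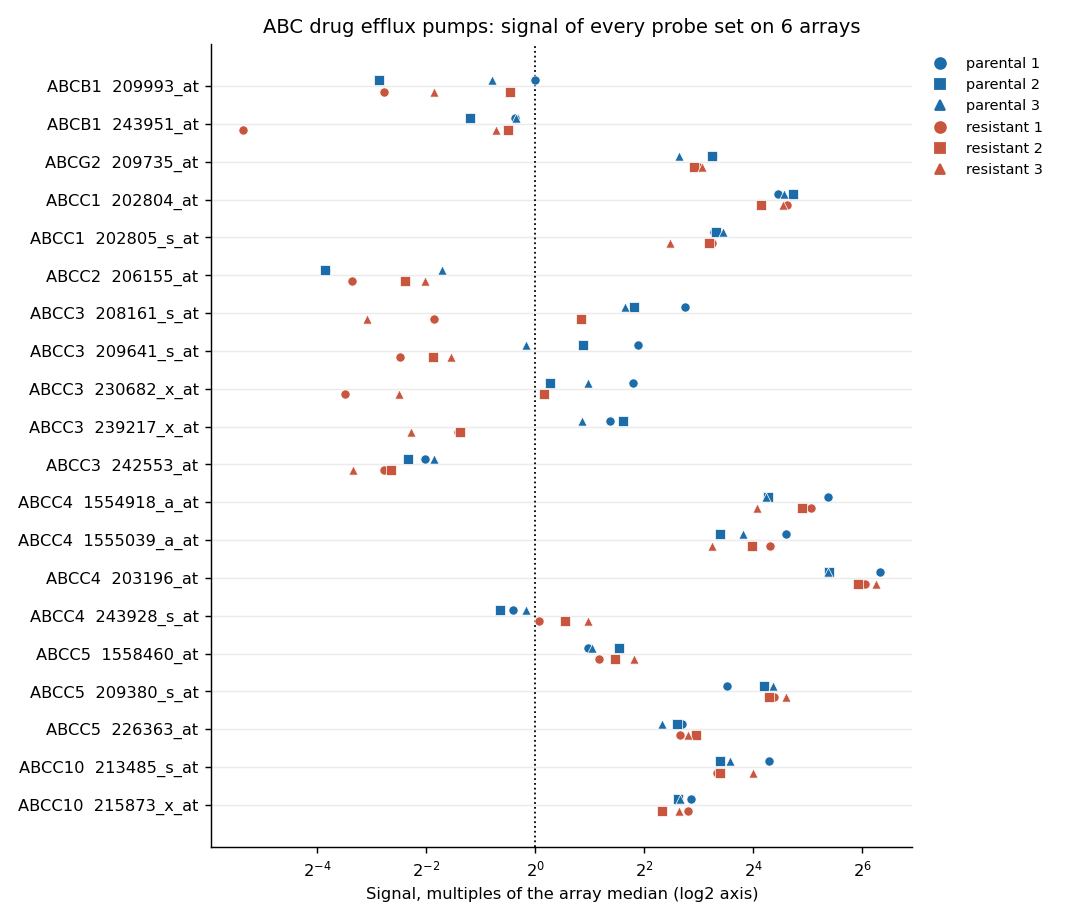
Signal of each of the 20 member probe sets on each of the 6 arrays, as a multiple of that array's median (log2 axis). Blue symbols are parental arrays, red symbols resistant arrays, symbol shapes give the replicate number, and the dotted line marks the array median. The 5 ABCC3 probe sets are those in which all red symbols lie left of all blue ones, together with 202805_s_at of ABCC1, and ABCB1 and ABCC2 do not pass the line on any array.

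ABCC3, also known as MRP3, exports organic anions and glucuronides and carries methotrexate. Its 5 probe sets were all lower in resistant cells, with no overlap between the groups in any of them. Probe set 239217_x_at was called. It passed the level filter only through the parental arrays, as did the 3 other ABCC3 probe sets that were tested. Its signal was 2.59, 3.05 and 1.80 on the parental arrays and 0.37, 0.38 and 0.21 on the resistant arrays. All 3 parental values were over the array median and all 3 resistant values were under it. The difference was -2.97 (SE 0.343, 95% interval -3.79 to -2.15), a 7.85-fold lower signal, with a limma adjusted p of 0.0111. Since the resistant values are in the range of background, the size of that fold is less certain than its interval shows.

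The 3 other tested ABCC3 probe sets differed by -2.83 to -3.43 but did not pass the adjusted threshold. Probe set 208161_s_at read 6.70, 3.49 and 3.11 on the parental arrays and 0.28, 1.78 and 0.12 on the resistant arrays. Resistant 2 was the one resistant array over the median, and the difference was -3.43 (SE 0.96, 95% interval -5.73 to -1.13, limma adjusted p = 0.134). Probe set 209641_s_at read 3.69, 1.83 and 0.89 in parental cells and 0.18, 0.27 and 0.34 in resistant cells, a difference of -2.83 (SE 0.542, limma adjusted p = 0.0571). The third parental array was already below the median there. Probe set 230682_x_at read 3.48, 1.21 and 1.95 in parental cells and 0.09, 1.12 and 0.18 in resistant cells, a difference of -2.95 (SE 0.934, limma adjusted p = 0.168). Here resistant 2, at 1.12, came close to parental 2, at 1.21. The fifth, 242553_at, stayed between 0.10 and 0.28 on all arrays and was not tested. With no level filter it differed by -0.85 (limma adjusted p = 0.449).

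Over the 6 arrays, the 4 tested ABCC3 probe sets correlated with each other at a Pearson r of 0.784 to 0.939 in their 6 pairs, which describes probe sets that share arrays and a gene. Resistant 2 was the highest resistant array in 208161_s_at and 230682_x_at, and resistant 3 in 209641_s_at. The called probe set is of the class whose probes can match other transcripts as well, and so are 230682_x_at and, to a lesser degree, the 2 others that were tested. All 4 tested ABCC3 probe sets are of these classes, so that without them no ABCC3 probe set was left to test. Without parental 1, 239217_x_at differed by -2.92 with a limma adjusted p of 0.0209, and 208161_s_at by -3.09 with 0.186. Probe sets 209641_s_at and 230682_x_at then fell under the level filter and were not tested. The call of 239217_x_at was lost with no level filter (limma adjusted p = 0.0667) and by the methods' t-test (adjusted p = 0.0820).

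**Figure D2:**
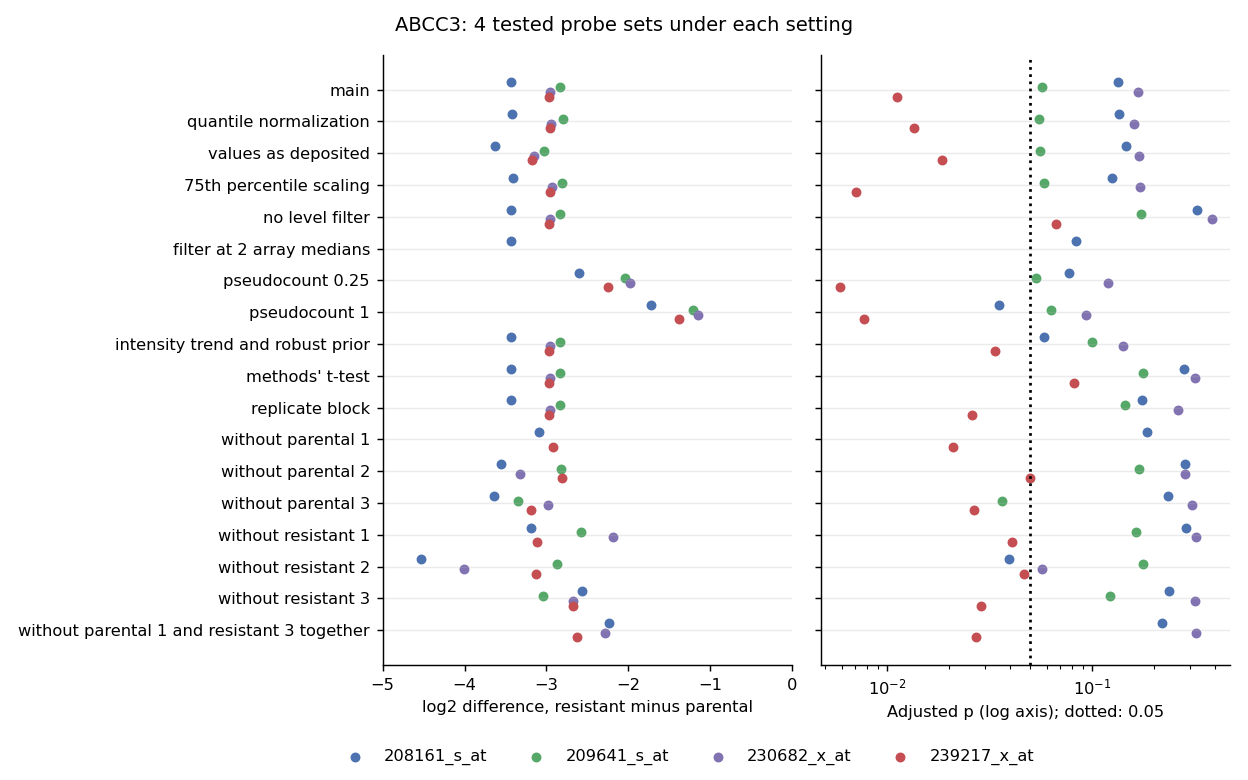
The 4 tested ABCC3 probe sets under the main setting and each of 17 alternatives. The left panel gives the log2 difference, resistant minus parental, and the right panel the limma adjusted p (for the methods' t-test, its own adjusted p) on a log axis with 0.05 dotted; a missing point means that the probe set fell under the level filter. All differences lie between -4.53 and -1.14, while 239217_x_at is the one probe set left of the dotted line under most alternatives, in 14 of the 16 in which it was tested.

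Markers of epithelial cells were read beside ABCC3, and their correlation with it was not computed. Of 13 such markers listed, 12 were on the array, and all 12 had a lower mean in resistant cells. Their summed signal was 652, 342 and 275 array medians on the parental arrays and 309, 251 and 224 on the resistant arrays. KRT8, KRT18 and KRT19 made up most of each sum, and the groups overlapped in each of these keratins. Parental 1 exceeded parental 2 and 3 in 10 of the 12 markers and in 3 of the 5 ABCC3 probe sets. The called ABCC3 probe set, 239217_x_at, was highest on parental 2. EPCAM, an epithelial adhesion protein, read 9.53, 1.19 and 0.31 in parental cells and 0.38, 0.34 and 0.47 in resistant cells. CDH1, which encodes E-cadherin, read 21.8, 2.01 and 0.72 against 0.09, 0.15 and 0.37. Over all 12 markers, 7 were over the median on all 3 parental arrays, and in 4, CDH1, CLDN7, ESRP1 and LAMB3, every resistant array was below every parental array. Over all tested probe sets the share with such an order was 12.3%. CDH1, CLDN7 and LAMB3 passed the level filter only through the parental arrays, and ESRP1 was not tested. No conclusion is therefore drawn from this count. Of the epithelial markers, 10 were tested and 1 was called, LAMB3, a laminin chain, lower by 1.53 on the log2 scale (limma adjusted p = 0.0310). LAMB3 read 1.73, 1.71 and 1.55 in parental cells and 0.45, 0.70 and 0.61 in resistant cells. It passed the level filter only through the parental arrays. Among all tested genes 1.47% were called lower, and no conclusion is drawn from setting 1 call beside that share. Hepatocyte markers, from the tissue in which ABCC2 and ABCC3 are best known, summed to between 4.24 and 6.47 array medians over 8 genes, and 0 of them were tested. Lymphoid markers summed to 112, 36.3 and 38.1 in parental cells and 10.3, 11.2 and 14.0 in resistant cells. CD3D and PTPRC made up most of each sum and differed in opposite directions. CD3D read 50.3, 31.9 and 35.2 in parental cells and 0.92, 2.14 and 0.08 in resistant cells, a difference of -6.16. PTPRC read 60.2, 0.37 and 0.402 in parental cells and was over the median on all 3 resistant arrays, a difference of 1.91. Of the 7 lymphoid markers on the array, 3 had a lower mean in resistant cells, and 0 were called. Granulocyte and monocyte markers summed to between 51.2 and 70.0 in parental cells and between 14.4 and 26.3 in resistant cells. LYZ alone made up most of these sums. Fibroblast markers summed to between 40.8 and 52.8 in parental cells and between 14.5 and 25.1 in resistant cells, with SPARC as the largest part. The part of any of these markers in the ABCC3 result was not tested.

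**Figure D3:**
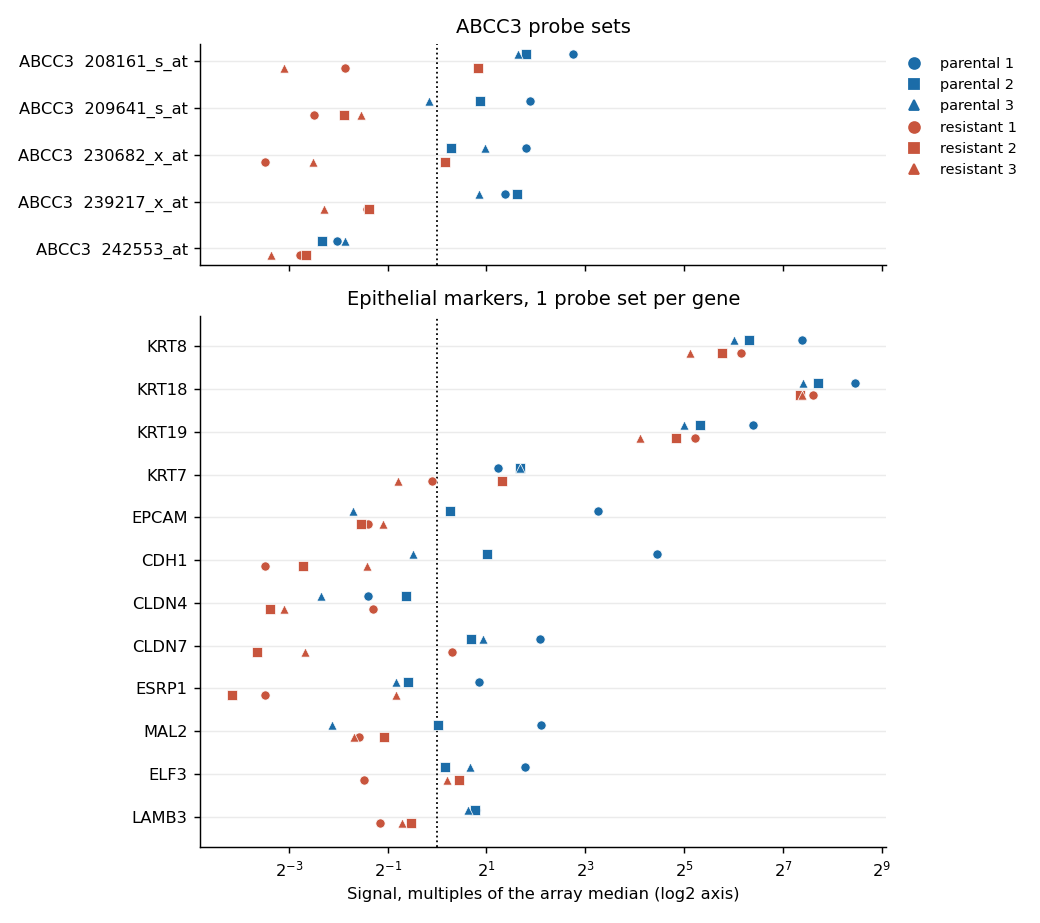
Signal of the 5 ABCC3 probe sets (upper panel) and of 12 epithelial markers, 1 probe set per gene (lower panel), on the 6 arrays, as a multiple of the median of each array (log2 axis). Blue is parental, red is resistant, symbol shape is the replicate number, and the dotted line is the array median. EPCAM and CDH1 are highest on parental 1, at 9.53 and 21.8, and the groups do not overlap in the 5 ABCC3 probe sets and in 4 of the 12 markers. Over all tested probe sets, every resistant array lay below every parental array in 12.3%.

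ABCC4, or MRP4, exports cyclic nucleotides, nucleotide analogues and methotrexate. It had 4 probe sets, all tested, of which 0 were called. The first, 203196_at, read 80.5, 42.1 and 41.3 on the parental arrays and 66.0, 60.3 and 76.0 on the resistant arrays. Parental 1 was above all resistant arrays and the other two parental arrays were below them. The difference was 0.37 (95% interval -0.39 to 1.13, limma adjusted p = 0.573), and without parental 1 it was 0.69 (limma adjusted p = 0.149).

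The remaining ABCC4 probe sets did not share 1 pattern. Probe set 243928_s_at read 0.76, 0.64 and 0.89 in parental cells and 1.05, 1.46 and 1.96 in resistant cells, so that every parental array was under the median and every resistant array over it, and the probe set passed the level filter only through the resistant arrays. Its difference was 0.93 (95% interval 0.23 to 1.64), with an unadjusted p of 0.0172 and a limma adjusted p of 0.168. Probe set 1554918_a_at read 41.3, 19.3 and 18.7 against 33.1, 29.7 and 16.8, a difference of 0.05 (limma adjusted p = 0.966). Probe set 1555039_a_at read 24.3, 10.5 and 14.0 against 19.8, 15.8 and 9.49, a difference of -0.09 (limma adjusted p = 0.932). In the latter pair the order of the arrays was alike (r = 0.943 over the 6 arrays), with parental 1 highest and resistant 3 lowest, and neither correlated with 243928_s_at above zero (r = -0.24 and -0.32). With parental 1 left out their differences were 0.42 and 0.25, and 0 of the 4 ABCC4 probe sets were called.

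ABCC1, or MRP1, exports glutathione conjugates and many anticancer drugs. Its probe set 202804_at read 22.0, 26.4 and 23.6 in parental cells and 24.6, 17.5 and 23.4 in resistant cells, with overlapping groups. The difference was -0.15 (95% interval -0.69 to 0.40, limma adjusted p = 0.775). Probe set 202805_s_at read 9.76, 9.92 and 10.9 against 9.50, 9.14 and 5.52. Every resistant array was below every parental one, by a small margin except on resistant 3, and the difference was -0.38 (95% interval -1.03 to 0.28, limma adjusted p = 0.501). The pair hardly correlated with each other over the 6 arrays (r = 0.025).

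ABCC5, or MRP5, exports cyclic nucleotides and folate analogues. Its 3 probe sets all had a higher mean in resistant cells, and in all 3 the groups overlapped. Probe set 209380_s_at read 11.5, 18.2 and 20.6 in parental cells and 20.7, 19.5 and 24.2 in resistant cells, a difference of 0.39 (95% interval -0.29 to 1.07, limma adjusted p = 0.501). Parental 1 was the lowest array there, and without it the difference was 0.14. Probe set 226363_at read 6.43, 6.08 and 5.02 against 6.33, 7.70 and 6.93, a difference of 0.26 (limma adjusted p = 0.555). Probe set 1558460_at read 1.96, 2.90 and 2.06 against 2.24, 2.76 and 3.51, a difference of 0.30 (limma adjusted p = 0.601).

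ABCC10, or MRP7, is known for the export of taxanes and other natural product drugs. Probe set 213485_s_at read 19.5, 10.4 and 11.9 in parental cells and 10.1, 10.5 and 16.0 in resistant cells, a difference of -0.17 (95% interval -0.96 to 0.62, limma adjusted p = 0.817). Its direction rested on parental 1, without which the difference was 0.10. Probe set 215873_x_at read 7.20, 6.12 and 6.31 against 6.93, 5.02 and 6.23, a difference of -0.12 (95% interval -0.65 to 0.41, limma adjusted p = 0.809). Neither separated the groups.

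ABCG2, also called breast cancer resistance protein, works as a dimer and exports methotrexate, including short polyglutamates. Its 1 probe set, 209735_at, read 9.54, 9.47 and 6.20 in parental cells and 8.07, 7.51 and 8.36 in resistant cells. The resistant values lay within the range of the parental ones. The difference was -0.05 (95% interval -0.64 to 0.55, limma adjusted p = 0.938), so that the interval ran from 0.641-fold to 1.46-fold.

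ABCB1, the P-glycoprotein of classical multidrug resistance, was at or under the array median on all 6 arrays in both of its probe sets. Probe set 209993_at read 1.00, 0.14 and 0.57 in parental cells and 0.15, 0.73 and 0.27 in resistant cells. Probe set 243951_at read 0.78, 0.44 and 0.79 against 0.02, 0.70 and 0.61. The groups overlapped in both. With no level filter their differences were -0.48 and -1.56, with limma adjusted p-values of 0.892 and 0.724. The probe set that names ABCB1 together with ABCB4, 209994_s_at, read 1.27, 0.56 and 0.85 against 0.13, 0.34 and 0.78 and was not tested. A change in ABCB1 below the level these probe sets can measure was not detectable.

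ABCC2, or MRP2, exports conjugates and methotrexate into bile. Its probe set 206155_at read 0.07, 0.07 and 0.31 in parental cells and 0.10, 0.19 and 0.25 in resistant cells, under the median on all arrays. With no level filter the difference was 0.55 (95% interval -1.23 to 2.32, limma adjusted p = 0.830). No order of the groups can be read from values this low.

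**Figure D4:**
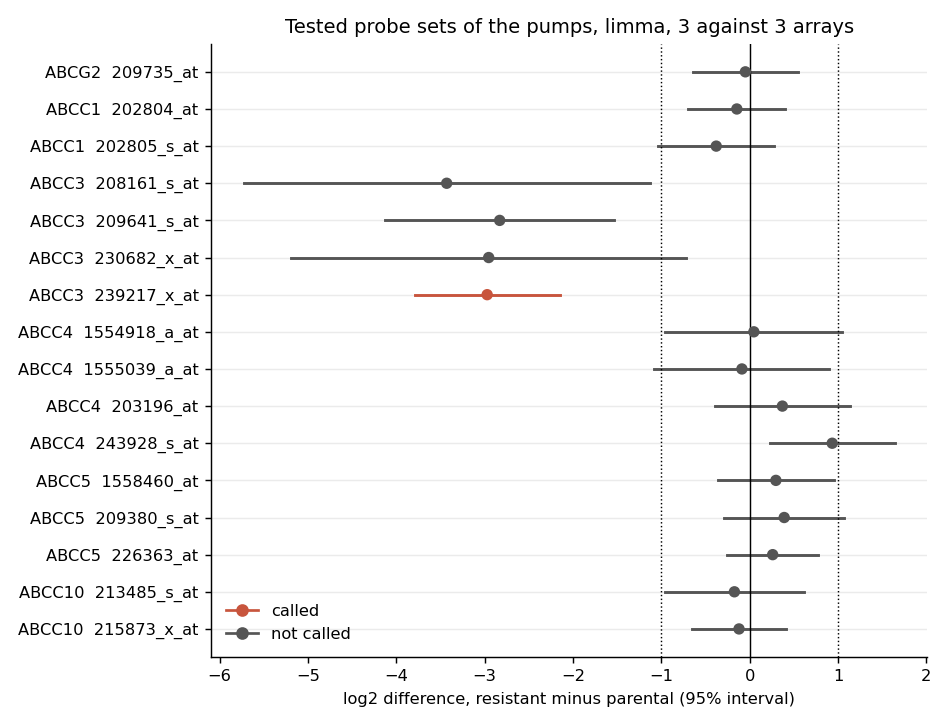
Difference of each of the 16 tested member probe sets, resistant minus parental on the log2 scale, with the 95% interval from limma over 3 against 3 arrays. The solid line marks no difference and the dotted lines a fold of 2 either way; the called probe set, 239217_x_at of ABCC3, is red. The 4 ABCC3 probe sets lie between -3.43 and -2.83, and the other 12 lie between -0.38 and 0.93.

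Outside ABCC3, 12 probe sets of 5 members were tested and 0 were called, with 0.168 as the smallest limma adjusted p and 0.93 as the largest absolute difference. Of these 12, 11 were over the array median on all 6 arrays, and the median difference was 0.00. In 6 of the 12 the whole 95% interval lay within a fold of 2 either way, namely ABCG2, 202804_at of ABCC1, 226363_at and 1558460_at of ABCC5, and both probe sets of ABCC10. In the other 6 the interval reached beyond a fold of 2 in at least one direction. The smallest absolute difference among all calls on the array was 1.04.

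The reference sequence at the annotated starts is printed for a member whose probe set stayed under the median. It is also printed for a member with 3 of 4 probe sets over the median on all arrays. Windows of 300 bases, 250 before the start and 50 from it on, were taken from RefSeq for assembly GRCh38.p14, where 6 of the 8 members have a window, and ABCC1 and ABCC3 do not. ABCC2 lies at chr10:99782390-99782689 on the plus strand and ABCC4 at chr13:95301402-95301701 on the minus strand. Capitals mark each CG, read 5′ to 3′ on the strand of the gene.
ABCC2: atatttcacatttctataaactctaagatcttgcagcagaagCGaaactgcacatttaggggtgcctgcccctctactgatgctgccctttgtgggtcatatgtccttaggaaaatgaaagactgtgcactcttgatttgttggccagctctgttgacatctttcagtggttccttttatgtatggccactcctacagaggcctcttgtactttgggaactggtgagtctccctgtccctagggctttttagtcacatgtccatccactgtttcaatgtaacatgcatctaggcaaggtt
ABCC4: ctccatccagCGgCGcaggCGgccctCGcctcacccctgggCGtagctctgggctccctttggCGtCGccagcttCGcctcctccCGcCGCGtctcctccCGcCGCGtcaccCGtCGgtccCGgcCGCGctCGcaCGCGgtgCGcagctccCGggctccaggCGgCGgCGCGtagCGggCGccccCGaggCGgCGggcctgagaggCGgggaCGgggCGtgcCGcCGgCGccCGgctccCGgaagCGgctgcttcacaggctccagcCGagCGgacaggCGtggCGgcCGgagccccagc
The ABCC2 window holds 1 CG and the ABCC4 window 47, against a median of 14 over the 35116 windows of the table. Among the 12 member windows these are the lowest count, tied with a window of ABCB1, and the highest. The contrast between them was therefore set by the choice of windows. Fewer CG than in the ABCC4 window were found in 97.6% of all windows, and fewer than in the ABCC2 window in 3.96%. ABCB1, also at or under the median, has 2 windows with 16 and 1 CG. ABCC10, over the median on all arrays, has windows with 18 and 20, and those of ABCG2, also over it, range from 3 to 35. ABCC5, over the median on all arrays in its 3 probe sets, has 1 window with 26. The windows of ABCB1 and of ABCG2 differ widely within the gene, and which start is used in these cells was not measured. A relation between signal and CG count was not tested. The GC box GGGCGG, searched on both strands, was present in 4 of the 12 member windows and in 45.0% of all windows, and in neither of those printed. These are matches of letters in a reference, and methylation or binding at these starts was not measured.

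The 5 tested genes on either side of each member were read in the order of the same assembly. Around ABCC3 on chromosome 17, 0 of 10 neighbours were called, and their differences ran from -0.73 to 0.65, with a median of -0.16. Around ABCC4 on chromosome 13, 2 of 10 were called higher, with a median of 0.69, against 1.30% called higher among the 11810 tested genes. They were LINC01049, a noncoding transcript, with a difference of 3.46 (limma adjusted p = 0.0201), and RAP2A, a small GTPase of the RAS family, with 2.22 (limma adjusted p = 0.0184). Around ABCC5 on chromosome 3, 1 of 10 was called higher, YEATS2, a subunit of a histone acetyltransferase complex, with 1.28 (limma adjusted p = 0.0359). Around ABCG2, ABCC1 and ABCC10, 0 of 10 were called each.

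The genes whose profile over the 6 arrays was most like that of a member were found by Pearson r between representative probe sets, and all were among the best of 11810 genes for a match over 6 points. For ABCC3, by 208161_s_at, they were SELENOM (r = 0.994), GLIS2 (r = 0.982) and ZNF565 (r = 0.981). SELENOM read 6.57, 4.0 and 3.64 in parental cells and 0.44, 2.09 and 0.34 in resistant cells, high on resistant 2 among the resistant arrays as ABCC3 was. For ABCC4, by 203196_at, they were SLC24A1 (r = 0.997), PCM1 (r = 0.995) and RB1CC1 (r = 0.995). PCM1, a centrosome component, read 86.0, 41.0 and 36.8 against 67.4, 63.4 and 79.0, with parental 1 above all resistant arrays and parental 2 and 3 below them, as for ABCC4. For ABCC1 the closest was ZNF528 (r = 0.997), for ABCC5 CLIC2 (r = 0.993), for ABCC10 SMC5 (r = 0.990) and for ABCG2 NRDE2 (r = 0.982). None of the 3 closest genes of any member was called.

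Of 40 other ABC genes listed, 36 were on the array and 17 were tested, and 0 were called in either direction, against 2.77% of all tested genes called either way. At an unadjusted limma p under 0.05, 3 were higher and 2 were lower, and the methods' t-test gave 5. The smallest limma adjusted p belonged to TAP1, the peptide transporter of antigen presentation, which read 2.06, 3.66 and 2.90 in parental cells and 7.19, 6.86 and 6.24 in resistant cells, a difference of 1.27 (limma adjusted p = 0.0731). ABCA3, a lipid transporter named after its values were seen, read 5.56, 7.54 and 6.51 against 0.98, 1.47 and 3.18, a difference of -1.97 (limma adjusted p = 0.0844). The groups did not overlap in either gene. Among 28 tested probe sets of these genes, 1 was called: 207623_at of ABCF2, an ABC protein without a membrane domain, read 0.24, 0.19 and 0.06 in parental cells and 2.90, 2.96 and 1.88 in resistant cells, a difference of 4.16 (limma adjusted p = 0.0156). The parental values are in the range of background and the probe set passed the level filter only through the resistant arrays, so that the size of this difference is uncertain. The representative probe set of ABCF2 read 33.7, 39.9 and 39.4 against 71.8, 52.2 and 56.8 and differed by 0.67 (limma adjusted p = 0.183), so that probe sets of this gene did not differ by like amounts.

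**Figure D5:**
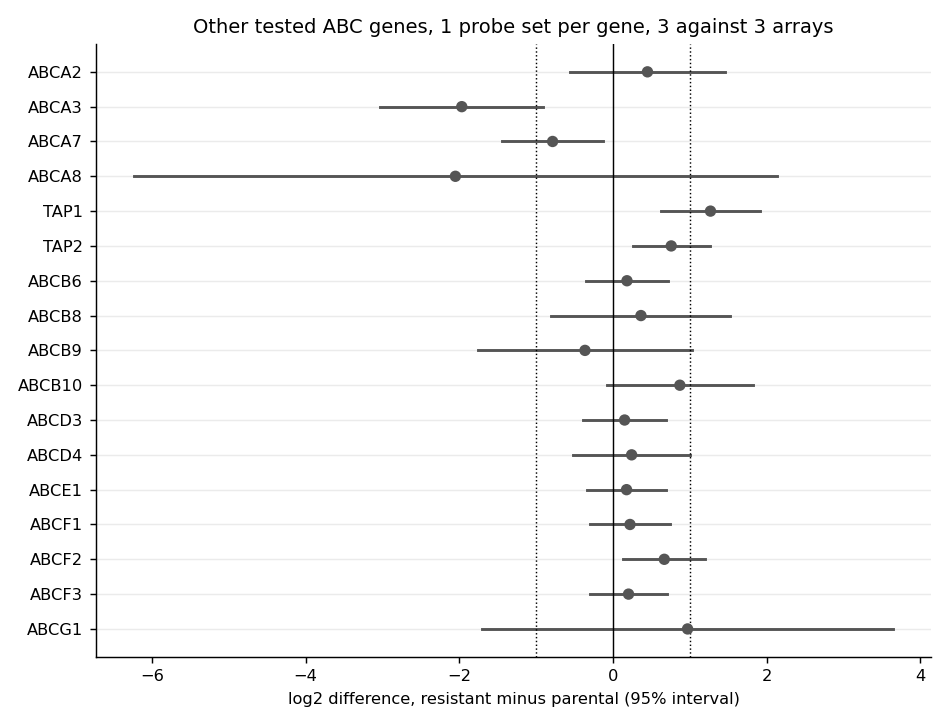
Difference of the 17 other tested ABC genes, 1 probe set per gene, resistant minus parental on the log2 scale, with the 95% interval from limma over 3 against 3 arrays. The dotted lines mark a fold of 2. TAP1 lies at 1.27 and ABCA3 at -1.97, and 0 of the 17 were called.

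Genes that act with the pumps were read from 5 lists with 46 entries, of which 28 were tested, 0 were called higher and 1 lower. TAP1, given above among the other ABC genes, is also an entry here, as a drug exporter. The call was ATP7A, a copper-exporting ATPase in the list of other drug exporters. It read 17.3, 17.7 and 15.6 in parental cells and 5.50, 6.62 and 8.34 in resistant cells, lower on all resistant arrays, with a difference of -1.32 (limma adjusted p = 0.0447). The call was lost when any single array was left out, and with quantile or 75th percentile scaling. Its relative ATP7B, named after its values were seen, read 17.2, 17.3 and 13.7 against 9.19, 6.94 and 7.00 and differed by -1.06 (limma adjusted p = 0.0774). With quantile and with 75th percentile scaling ATP7B was called lower in place of ATP7A (limma adjusted p = 0.0385 and 0.0477).

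In the list of methotrexate uptake and retention, 5 of 11 genes were tested and 0 called, with a median difference of 0.16 against 0.02 over all tested genes. The smallest limma adjusted p there was that of FPGS, which adds the glutamate residues, at 8.99, 11.2 and 8.48 in parental cells and 8.60, 5.38 and 6.99 in resistant cells, a difference of -0.46 (limma adjusted p = 0.388). Of the transcription factors of drug transport, 11 were tested and 0 called (median 0.02), and the lowest adjusted p was that of KEAP1, the inhibitor of NRF2, with a difference of 0.60 (limma adjusted p = 0.219). Of the membrane anchors of the pumps, 4 were tested and 0 called (median 0.03), and radixin, encoded by RDX, differed by 0.59 (limma adjusted p = 0.226). All 5 glutathione synthesis genes were tested and 0 called, with a median of 0.38. Of these, the cystine carrier SLC7A11 read 19.2, 18.7 and 14.5 against 30.0, 28.8 and 41.3, higher on all resistant arrays, with a difference of 0.93 (limma adjusted p = 0.120).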

How the data were processed

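Total RNA of 3 parental and 3 methotrexate-resistant K562 arrays was profiled, and groups and replicate numbers came from the labels. The deposited values were intensities, 1 linear signal per probe set, computed by the authors with MAS5 per the submitters' processing notes (version not given in the sources used here). Array medians differed (14.3, 13.1 and 12.7 parental; 12.3, 12.5 and 10.2 resistant), so the values were neither logged nor centred on each array's median, and whether MAS5 scaled the arrays to a common target is unknown.

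Each intensity was divided by the array median and floored at 0.01 before log2. The 62 control probe sets were left out, as were probe sets with a mean under 1 over the 6 arrays. limma 3.58.1 in R 4.3.3 (lmFit, eBayes, two-sided, Benjamini-Hochberg) was run over the remaining 26692, and calls required at least a 2-fold difference besides an adjusted p under 0.05. For other genes, the one probe set with the highest average log2 signal among those tested stood for the gene. The script was tested on simulated data. Same-numbered arrays did not deviate together (r = -0.007, -0.025 and -0.006), so no pairing was used. Names came from the platform annotation, updated by gene ID; 17 listed genes had no probe set of their own.

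Members and lists were chosen with earlier results of these data known. Named were all members, called neighbours, and the 3 genes most like each member. In each list other than the cell type markers, the called genes or else the gene with the smallest adjusted p were named. In the marker lists, markers that define their list were named. HBE1, LAMB3, CLDN7, ESRP1, KRT8, KRT18, KRT19, CD3D, PTPRC, LYZ and SPARC were named after their values were seen. No batch is given in the sources, and the number of arrays limits the precision. Alternatives covered scaling, level filter, pseudocount, test, replicate block, s and x probe sets, and leaving out arrays.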

Additional observations from a re-analysis of the deposited data

How the results depend on the processing

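The alternatives covered scaling, level filter, pseudocount, trend, t-test, replicate block and arrays left out. Of 264 differences of member probe sets recomputed under them, 245 kept direction and side of the threshold, 3 gained a call, 2 lost it and 14 reversed. All tested member probe sets that reversed differed by under a fold of 2. ABCC3 239217_x_at lost its call with no level filter (limma adjusted p = 0.0667) and with the methods' t-test (adjusted p = 0.0820), and was not tested with the filter at 2. ABCC3 208161_s_at gained a call at a pseudocount of 1 (-1.72, limma adjusted p = 0.0351) and without resistant 2 (-4.53, limma adjusted p = 0.0393), and 209641_s_at without parental 3 (-3.35, limma adjusted p = 0.0366). Member probe sets called lower, 1 as reported, were 0 with no level filter, 0 with the filter at 2 array medians and 2 with a pseudocount of 1. They were 0 by the methods' t-test, 0 without s and x probe sets (no ABCC3 probe set is then left to test), and 1 to 2 with an array left out. Wherever 2 were called, both were probe sets of ABCC3. Other ABC genes called, 0 as reported, were 1 as deposited, 1 with no level filter, 2 with the filter at 2, 2 with a pseudocount of 1, 2 with the trend, 0 to 1 with an array left out, and 1 without parental 1 and resistant 3 together, a setting chosen after seeing the data. They were ABCA3, lower (as deposited, filter at 2, pseudocount of 1, trend, and without resistant 3), TAP1, higher (filter at 2, pseudocount of 1, trend), and ABCC12, higher with no filter, where its signal was under the median on all arrays. Context genes called, 1 as reported, were 0 with no level filter, 3 with the filter at 2, 2 with a pseudocount of 1 and 3 with the trend. With the filter at 2 and with the trend they were ATP7A and ATP7B, lower, and TAP1, higher. With a pseudocount of 1 they were ATP7A, lower, and TAP1, higher. With quantile or 75th percentile scaling the count stayed at 1, but the call was ATP7B, lower, in place of ATP7A. TAP1 is on both lists, so these are the same TAP1 calls as among the other ABC genes. The count was 0 by the methods' t-test, 0 with the replicate block, and 0 with any single array left out. The replicate numbers do not pair the arrays, and the replicate block left 1 member probe set called lower and 0 higher. Reversals outside single arrays were ABCC4 1554918_a_at at -0.15 as deposited, and, without parental 1 and resistant 3 together, ABCC4 1555039_a_at at 0.55 and ABCG2 at 0.022. With single arrays left out the differences ranged from -0.24 to 0.00679 for ABCC1 202804_at, from -0.38 to 0.10 for ABCC10 213485_s_at, from -0.22 to 0.00854 for ABCC10 215873_x_at, from -0.15 to 0.42 for ABCC4 1554918_a_at, from -0.36 to 0.25 for ABCC4 1555039_a_at, and from -0.25 to 0.057 for ABCG2. The values as deposited shifted the median of all tested probe sets to -0.18. The cause of these changes was not tested, and signals near background limit ABCB1, ABCC2 and ABCC3.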
